A study of Homo sapiens with 3 samples.

Results

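The nuclear effectors of the Hippo pathway, the TEAD factors that carry them to DNA and 4 of their target or regulator genes were examined in 2 lists of p300/CBP ChIP-seq peaks. The 9 genes were YAP1, WWTR1, TEAD1, TEAD3, TEAD4, AMOTL2, ANKRD1, LATS2 and AJUBA, of 20163 protein-coding genes in all, and a peak belonged to a gene when its centre lay within 100 kb of the gene's transcription start site (TSS) in hg19. By this rule 91 of the 82901 peaks of control cells and 61 of the 39320 peaks of Fra-1-depleted cells belonged to the set, and no peak was counted for more than 1 of the 9 genes.

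The lists came from MDA-MB-231 cells, an established line of triple-negative breast cancer. The cells had received control siRNA (siCTL) or a mixture of siRNAs against Fra-1 (siFra-1) at 4.5 nM for 72 h, were fixed for 7 min, and chromatin was precipitated with an antibody to p300/CBP. Each condition was 1 library, so every comparison below is between 2 libraries, no test of the conditions could be made, and the 95% intervals cover counting error only. The lists hold positions but no heights or read counts, the depth is unknown, an input library was not analysed here, and the absence of a peak means that the signal did not pass the calling threshold. A processing parameter named with the lists also differed between them, and its part in peak number and width was not tested.

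YAP and TAZ (the product of WWTR1) are transcriptional coactivators that cannot bind DNA themselves. When the kinases of the Hippo pathway are inactive they enter the nucleus, join a TEAD factor at its DNA motif and recruit further coactivators, among them the histone acetyltransferases p300 and CBP. Fra-1 (FOSL1) is a subunit of the AP-1 dimer, and in breast cancer cells YAP, TAZ and TEAD are known to occupy many enhancers together with AP-1. Several members of the pathway's own feedback loop, such as LATS2 and AMOTL2, are themselves targets of YAP and TAZ.

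The sequences below are hg19 reference bases at the positions of peaks of the lists, shown because they lie under the wide peaks on which the results for 4 of the genes turn. Capitals mark the core TEAD motif, searched as GGAATG and its complement CATTCC, and the AP-1 motif, searched as TGAGTCA and its complement TGACTCA. A match is a description of the letters and not a measured binding site. The first is the centre of the 700 bp siFra-1 peak 49.1 kb downstream of the AMOTL2 TSS (chr3:134045102-134045301, plus strand). It held 3 adjacent TEAD motifs, the first on the opposite strand to the rest.
AMOTL2: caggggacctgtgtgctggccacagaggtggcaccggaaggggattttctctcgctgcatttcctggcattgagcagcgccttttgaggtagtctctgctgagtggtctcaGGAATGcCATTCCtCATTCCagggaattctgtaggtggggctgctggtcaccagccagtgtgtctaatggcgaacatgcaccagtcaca
The second is the centre of the widest peak of the set, a 1600 bp siFra-1 peak upstream of ANKRD1 (chr10:92690602-92690801, plus strand), with 1 of that peak's 3 TEAD motifs.
ANKRD1 upstream: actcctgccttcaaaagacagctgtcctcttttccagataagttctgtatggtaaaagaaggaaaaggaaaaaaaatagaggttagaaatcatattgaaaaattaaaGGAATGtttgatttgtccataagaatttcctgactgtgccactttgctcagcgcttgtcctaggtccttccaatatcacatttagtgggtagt
The third is the 250 bp before the ANKRD1 TSS (chr10:92680845-92681094, minus strand), which lay within a peak of both lists and held 2 TEAD motifs.
ANKRD1 promoter: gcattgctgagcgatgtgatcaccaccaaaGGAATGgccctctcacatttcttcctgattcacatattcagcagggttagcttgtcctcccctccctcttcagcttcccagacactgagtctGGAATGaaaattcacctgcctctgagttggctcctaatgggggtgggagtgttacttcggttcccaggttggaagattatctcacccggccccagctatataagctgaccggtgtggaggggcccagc
The fourth is the centre of a 250 bp siCTL peak within AJUBA (chr14:23443827-23444026, plus strand), with 1 TEAD motif.
AJUBA: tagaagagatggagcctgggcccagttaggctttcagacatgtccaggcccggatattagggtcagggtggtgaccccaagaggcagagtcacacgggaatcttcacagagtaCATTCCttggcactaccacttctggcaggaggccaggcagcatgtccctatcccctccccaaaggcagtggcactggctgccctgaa
The last is the centre of the 550 bp siFra-1 peak in an intron of TEAD1 (chr11:12715377-12715576, plus strand), with 1 AP-1 motif and no TEAD motif.
TEAD1: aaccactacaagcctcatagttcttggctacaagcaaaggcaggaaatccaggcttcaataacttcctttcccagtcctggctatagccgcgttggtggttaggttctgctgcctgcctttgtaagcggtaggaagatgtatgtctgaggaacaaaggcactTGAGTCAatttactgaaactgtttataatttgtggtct
Among the 250 bp upstream of all 20163 coding genes, 11% held the TEAD motif and 3.34% held the AP-1 motif.

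Around the 9 genes the siFra-1 list held fewer but wider peaks than the siCTL list. The 61 peaks against 91 made a ratio of 0.67 (interval 0.477 to 0.937), whereas the sequence from 100 kb to 1 Mb away from the same start sites held 275 against 602 peaks, a ratio of 0.457 (0.395 to 0.528), and the 2 whole lists had a ratio of 0.474. The intervals of the near and the far windows overlapped. In the siCTL list 66 of the 91 peaks (72.5%) had the smallest width of 100 bp, and 4 were 500 bp or wider. In the whole siCTL list 69127 of 82901 peaks were 100 bp, and 782 (0.943%) were 500 bp or wider. In the siFra-1 list 33 of 61 (54.1%) were 100 bp and 9 were 500 bp or wider. Shares of these widths over the whole siFra-1 list are not given here. Peaks of 250 bp and over, called wide here, numbered 10 and 19, a ratio of 1.9. Its interval (0.841 to 4.57) contained the 1.64 of both the far windows and the whole lists. In the whole lists 3655 of 82901 siCTL peaks and 5989 of 39320 siFra-1 peaks were wide, so fewer but wider peaks in siFra-1 were a trait of the lists in general. The length covered by peaks was 13500 bp in siCTL and 15000 bp in siFra-1, a ratio of 1.11, which became 0.942 when AMOTL2 was left out and 0.77 without both AMOTL2 and ANKRD1.

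**Figure D1:**
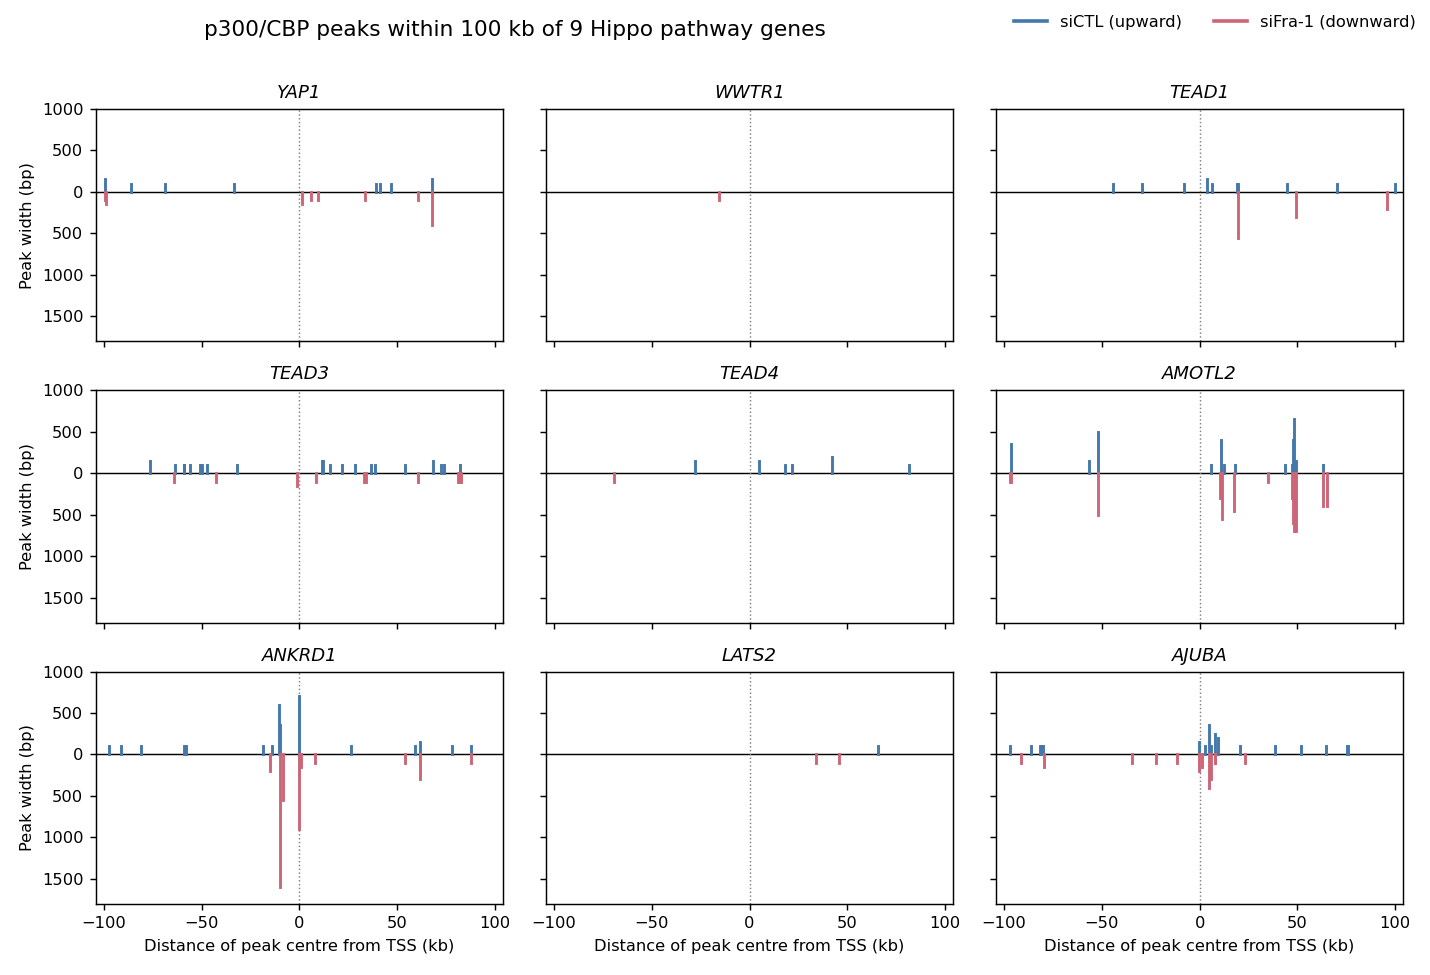
Peaks of the 9 genes, drawn at the distance of the peak centre from the TSS in kb (negative is upstream), with the line length giving peak width in bp, upward for siCTL and downward for siFra-1. The long lines gather at AMOTL2 and ANKRD1, while WWTR1 and LATS2 had 1 to 3 peaks of 100 bp in the lists combined.

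Gene by gene the set was divided. Fewer siFra-1 than siCTL peaks lay around 5 of the 9 genes (TEAD1, TEAD3, TEAD4, ANKRD1 and AJUBA), 3 had more (WWTR1, AMOTL2 and LATS2) and YAP1 had the same number. Of all coding genes with any peak in their window, 85.8% had fewer. The length covered by peaks was larger in siFra-1 at 5 of the 9 genes (YAP1, WWTR1, AMOTL2, ANKRD1 and LATS2), against a background of 15.2% of coding genes, but at WWTR1 and LATS2 the gain was a single 100 bp peak. TEAD1 had equal cover in both lists, and TEAD3, TEAD4 and AJUBA had less. The median change in cover was 100 bp over the 9 genes and -300 bp over all coding genes with a peak. Wide peaks occurred at 5 of the 9 genes, of which YAP1, TEAD1, AMOTL2 and ANKRD1 had more in siFra-1 and AJUBA had 2 in each list. Among all coding genes with a wide peak in either list, 49.5% had more in siFra-1.

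**Figure D2:**
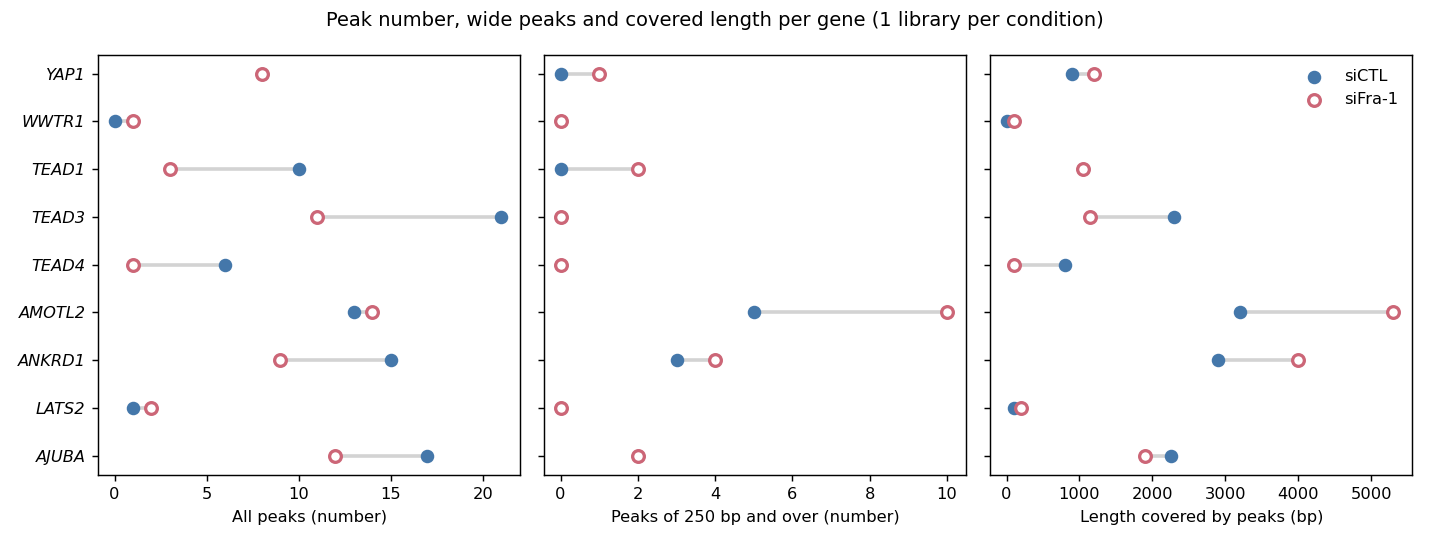
Number of peaks, number of peaks of 250 bp and over, and covered length in bp for each gene, with filled points for siCTL and open points for siFra-1 (1 library each, hence no error bars). Peak number moved left at TEAD1, TEAD3 and TEAD4, while cover moved right at AMOTL2 and ANKRD1.

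The same positions were seldom called in both lists, though more often than in the series as a whole. A siFra-1 peak overlapped 20 of the 91 siCTL peaks (22.0%, interval 14.7 to 31.5 by Wilson's method), where the share for all siCTL peaks was 9.56%. In the other direction 19 of 61 siFra-1 peaks (31.1%, 20.9 to 43.6) were overlapped, where the share for all siFra-1 peaks was 19.1%. Without AMOTL2 and ANKRD1 the shares were 12.7% (6.58 to 23.1) and 21.1% (11.1 to 36.3), and both intervals contained the values of the whole lists. This omission was chosen after seeing the data, and it keeps TEAD3, where none of 21 siCTL and 11 siFra-1 peaks overlapped. Overlap also occurred at YAP1 (2 of 8 peaks in each list), TEAD1 (2 of 10 in siCTL and 1 of 3 in siFra-1) and AJUBA (4 of 17 and 5 of 12). Overlap was most frequent for wide peaks. All 10 wide siCTL peaks were overlapped (background 85%), as were 13 of the 19 wide siFra-1 peaks (68.4%, 46 to 84.6, background 68.2%). At the 20 overlapping pairs the siFra-1 peak was wider in 15, equal in 2 and narrower in 3, with a median difference of 175 bp (quartiles 37.5 and 337.5), where 56.4% of all 7925 pairs were wider and the median was 50 bp. With a window of 250 kb the median at the 9 genes was also 50 bp. It was 50 bp too with an overlap of 50% of both peaks, but that rule leaves out pairs of very unlike width by definition. The median of all pairs under that rule is not given here. A siFra-1 peak that covered more than 1 siCTL peak enters once for each of them. All 20 pairs lay at YAP1, TEAD1, AMOTL2, ANKRD1 and AJUBA, and TEAD3 and TEAD4 had none.

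YAP1 (chr11:101981178-102104155, plus strand) encodes one of the 2 coactivators. It had 8 peaks in each list, covering 900 bp in siCTL and 1200 bp in siFra-1. Only 2 of the positions were common to both. The widest was in a YAP1 intron 67.9 kb downstream of the TSS, where a 150 bp siCTL peak (chr11:102048802-102048951) overlapped a 400 bp siFra-1 peak (chr11:102048852-102049251) without a TEAD or AP-1 motif. Of all siCTL peaks of 150 bp that were overlapped, 24% met a siFra-1 peak at least as wide as 400 bp. A second common position at -99.2 kb, nearer to CFAP300 than to YAP1, was 150 bp in siCTL and 100 bp in siFra-1. The siCTL peak held 1 TEAD and 1 AP-1 motif, and the AP-1 motif lay outside the siFra-1 peak. Directly beside the siCTL peak lay a further siFra-1 peak of 150 bp (chr11:101882052-101882201) that overlapped no siCTL peak. The siFra-1 list alone had a 150 bp peak 1.35 kb into the first part of the gene (chr11:101982452-101982601, intron). Between 1.35 and 67.9 kb inside the gene siFra-1 had 6 peaks and siCTL 4, and they shared 1 position.

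WWTR1 (chr3:149235022-149454501, minus strand) encodes TAZ. Measured from the TSS of the annotated gene, its window held no siCTL peak and 1 siFra-1 peak of 100 bp (chr3:149470202-149470301), which lay in a UTR exon of COMMD2 at -15.8 kb. The value depended on which start site was used. The canonical transcript starts 78.7 kb further downstream, and the window around that start held 4 siCTL and 2 siFra-1 peaks, covering 850 and 350 bp. All but the COMMD2 peak lay in introns of WWTR1. One intronic peak of 250 bp with 1 AP-1 motif, 81.6 kb from the canonical start, had the same ends in both lists, and one of 400 bp at 77.8 kb was in the siCTL list only, so with this start WWTR1 moved opposite to AMOTL2 and ANKRD1.

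The TEAD genes encode the DNA-binding partners, and around all 3 of those examined the siFra-1 list had fewer peaks. The same held for 85.8% of all coding genes with a peak. TEAD1 (chr11:12695968-12966284, plus strand) had 10 siCTL peaks of 100 to 150 bp and 3 siFra-1 peaks of 550, 300 and 200 bp, a ratio of 0.3 (0.0531 to 1.17), yet cover was 1050 bp in each list. Its 550 bp siFra-1 peak, 19.5 kb inside the gene (chr11:12715202-12715751, intron), extended over a pair of separate siCTL peaks of 100 bp. It held 2 AP-1 motifs, at 19397 and 19574 bp from the TSS. Of siCTL peaks of 100 bp that were overlapped, 10.5% met a siFra-1 peak of at least this width. The 300 bp peak at 49.3 kb (chr11:12745102-12745401, intron) was in the siFra-1 list only, with neither motif.

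TEAD3 (chr6:35441374-35464856, minus strand) had the most peaks of the 9 genes in siCTL, 21, and 11 in siFra-1 (ratio 0.524, 0.228 to 1.14), covering 2300 and 1150 bp. None exceeded 150 bp and none overlapped between the lists. In the whole siCTL list 2619 of 69127 peaks of 100 bp and 1433 of 8047 peaks of 150 bp were overlapped. Of the widest siCTL peaks the one nearest to the TSS lay in a TEAD3 intron at 11.5 kb (chr6:35453252-35453401) with 1 TEAD motif. The widest siFra-1 peak (chr6:35465852-35466001, 150 bp) lay at -1.07 kb, in a UTR exon annotated to TULP1. TEAD4 (chr12:3068496-3149842, plus strand) fell from 6 peaks to 1 and from 800 to 100 bp of cover (ratio of peak number 0.167, 0.00362 to 1.37). Its widest siCTL peak, 200 bp in an intron at 42.1 kb (chr12:3110452-3110651), held 1 TEAD motif. The sole siFra-1 peak lay in TULP3 at -69.3 kb. The peak number fell around these genes also beyond 100 kb: from 165 to 65 at TEAD3, from 27 to 10 at TEAD4 and from 124 to 64 at TEAD1.

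AMOTL2 (chr3:134074189-134094321, minus strand) encodes an angiomotin-family scaffold that binds YAP and holds it in the cytoplasm. It had 13 siCTL and 14 siFra-1 peaks, but the wide ones rose from 5 to 10 and cover from 3200 to 5300 bp. Among the 20163 coding genes, 35 (0.174%) gained at least as much cover and 19 (0.0942%) had at least as many wide siFra-1 peaks. Neighbouring genes can share these windows and are counted separately. Outside 100 kb the window of AMOTL2 had 19 siCTL and 11 siFra-1 peaks. The gain was spread over several sites, a site being a run of overlapping peaks of either list. Of 11 sites with a wide peak, 7 had a peak in both lists and 4 in siFra-1 only. Among the 7 sites shared, 5 were wider in siFra-1, 1 was equal and 1 narrower.

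The densest group of AMOTL2 peaks lay 47.1 to 49.1 kb downstream of its TSS, beyond the end of the gene, partly within the noncoding gene LINC02004. There siFra-1 had 4 wide peaks in a row within chr3:134044852-134047351. At 49.1 kb a 150 bp siCTL peak became a 700 bp siFra-1 peak around the 3 adjacent TEAD motifs printed above. The siCTL peak already covered all 3 motifs. Of 1433 siCTL peaks of 150 bp that were overlapped, 74 (5.16%) met a siFra-1 peak at least that wide. Next to it the widths were 650 and 700 bp at 48.4 kb, with neither motif. At 47.7 kb they were 400 and 600 bp, with 1 AP-1 motif, and at 47.1 kb a 300 bp peak with 1 AP-1 motif was in siFra-1 only. A 100 bp siCTL peak at 47.3 kb (chr3:134046952-134047051) adjoined that 300 bp peak without overlapping it. The peaks were 50 to 100 bp apart in siFra-1, so a longer gap allowed in calling would have joined them.

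Within the AMOTL2 gene siFra-1 had 3 wide peaks, all intronic. That at 11.2 kb (chr3:134082852-134083401) was 550 bp against 400 bp in siCTL and held 1 TEAD motif. Beside it a 300 bp peak at 10.6 kb (chr3:134083602-134083901, 1 TEAD motif) and, further on, a 450 bp peak at 17.4 kb (chr3:134076652-134077101, neither motif) were in siFra-1 only. On the far side of the gene group, a 400 bp peak at 65.3 kb (chr3:134028802-134029201) was in siFra-1 only and a 100 bp siCTL peak at 63.0 kb was 400 bp in siFra-1. Upstream no site common to both lists was wider in siFra-1. Peaks in 1 list only were 100 bp at -96.2 kb in siFra-1 and 150 bp at -56.3 kb in siCTL. An intergenic peak at -52.1 kb had the same 500 bp in both lists (chr3:134146152-134146651) with 1 TEAD and 2 AP-1 motifs, and one at -96.6 kb, nearer to CEP63 and with 1 AP-1 motif, was 350 bp in siCTL against 100 bp in siFra-1.

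ANKRD1 (chr10:92671853-92680844, minus strand) encodes an ankyrin-repeat nuclear cofactor and is among the most used reporter genes of YAP and TAZ activity. Its peaks fell from 15 to 9 (ratio 0.6, 0.232 to 1.46) while cover rose from 2900 to 4000 bp, a gain reached by 216 coding genes (1.07%). Of the 15 siCTL peaks 11 were 100 bp, and 10 of those 11 met no siFra-1 peak. Non-overlap was usual at this width, since 2619 of all 69127 siCTL peaks of 100 bp were overlapped. All but one of the wide sites lay at the TSS or about 10 kb upstream. At the TSS a 700 bp siCTL peak was 900 bp in siFra-1 (chr10:92680702-92681601) and held the TEAD motifs printed above, at -125 and -217 bp. In the siCTL list 193 peaks (0.233%) were at least 700 bp wide, and in the siFra-1 list 209 (0.532%) were at least 900 bp. A 150 bp siFra-1 peak at 0.917 kb (chr10:92679852-92680001) lay over coding sequence of ANKRD1 and was absent from the siCTL list.

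The upstream group of ANKRD1 held the widest peak of the set. Peaks of 600 bp (chr10:92690802-92691401) and 350 bp (chr10:92690352-92690701) in siCTL were replaced by 1 siFra-1 peak of 1600 bp (chr10:92689902-92691501), which extended beyond both and held 3 TEAD motifs, at -9601, -9867 and -10058 bp. In the whole siFra-1 list 7 peaks of 39320 (0.0178%) were at least as wide, and the widest was 2250 bp. Of 460 overlapped siCTL peaks of 350 bp this was the 1 that met a siFra-1 peak of 1600 bp or more. The siCTL pair covered 950 bp together, and the part of joined neighbours in the 1600 bp was not tested. A 550 bp peak at -8.28 kb (chr10:92688852-92689401, 1 TEAD motif) was in siFra-1 only. A further site at 61.5 kb, near HTR7, went from 150 to 300 bp, with neither motif. None of the wide sites of ANKRD1 held an AP-1 motif.

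**Figure D3:**
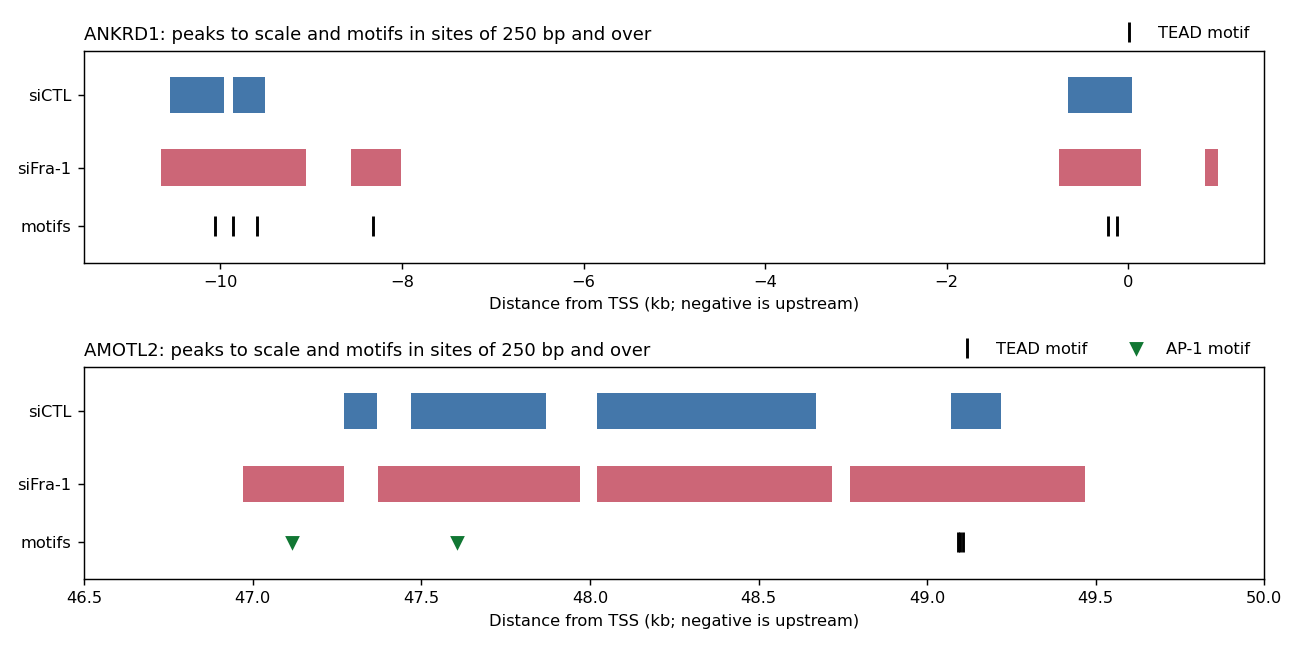
Peaks to scale at ANKRD1 (top) and the downstream group of AMOTL2 (bottom), by distance from the TSS in kb, siCTL above siFra-1, with TEAD motifs as black ticks and AP-1 motifs as green triangles. The 1600 bp siFra-1 peak of ANKRD1 spans both siCTL peaks, and the 3 TEAD motifs of AMOTL2 lie under the siCTL peak that was 150 bp wide.

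LATS2 (chr13:21547175-21635725, minus strand) encodes a kinase that phosphorylates YAP and TAZ. It had 1 siCTL peak, at 65.5 kb, and 2 siFra-1 peaks, at 45.8 and 34.1 kb, all of 100 bp in introns of LATS2 and none overlapping. In the whole siCTL list 2619 of 69127 peaks of 100 bp were overlapped. AJUBA (chr14:23440386-23451760, minus strand) encodes a LIM-domain protein that restrains the LATS kinases. It had 17 siCTL and 12 siFra-1 peaks (ratio 0.706, 0.308 to 1.57), covering 2250 and 1900 bp, in a window with 9 other coding start sites. The peaks wider than 200 bp lay inside AJUBA, and their widths moved in both directions. At 7.86 kb a 250 bp siCTL peak met a pair of 100 bp siFra-1 peaks. At 5.66 kb a 100 bp siCTL peak was 300 bp in siFra-1, and at 4.81 kb the widths were 350 and 400 bp. Each of these sites held 1 TEAD motif and no AP-1 motif. Just upstream of the TSS, in an exon of the divergent transcript AJUBA-DT, a peak of 150 bp (chr14:23452002-23452151) in siCTL was 200 bp in siFra-1 (chr14:23451902-23452101). A 150 bp peak at 1.48 kb (chr14:23450202-23450351, intron) was in siFra-1 only.

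**Figure D4:**
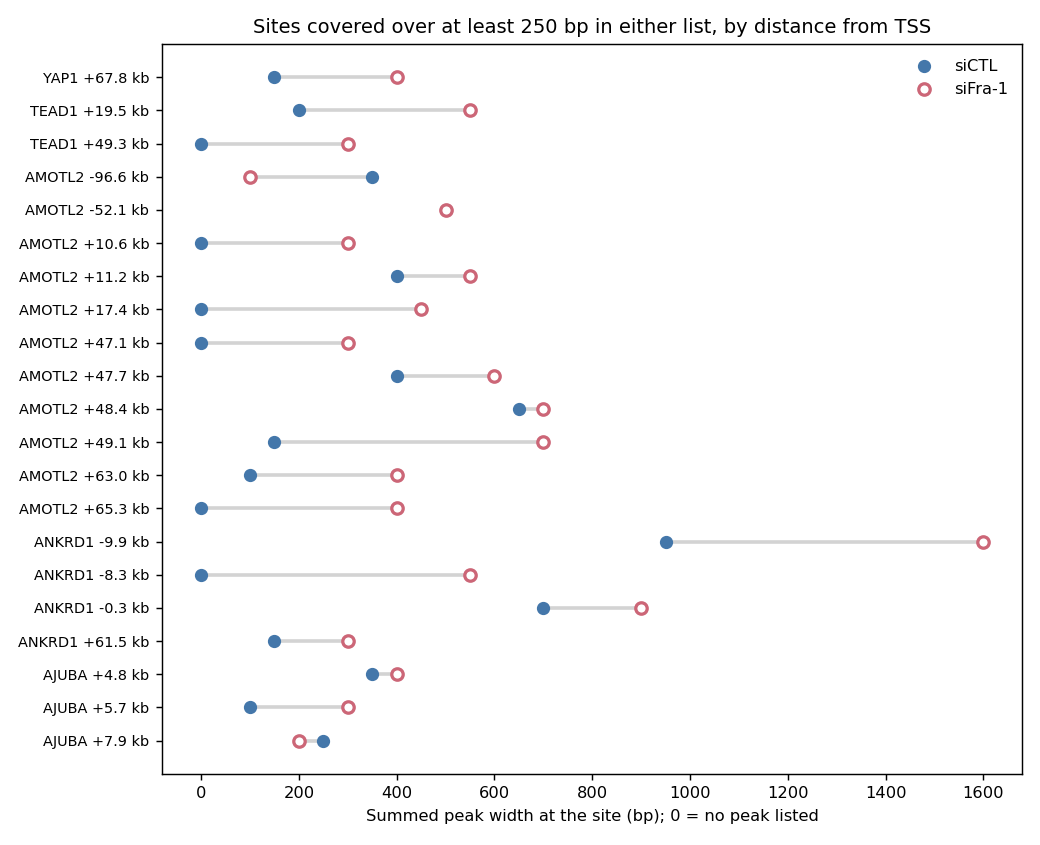
Width in bp of every site of the 9 genes covered over at least 250 bp in either list, named by gene and distance from the TSS, with filled points for siCTL, open points for siFra-1 and 0 where no peak was listed. Of the 21 sites, 12 reached 250 bp in siFra-1 only, so their open points lie to the right by selection, and 6 of those had no siCTL peak.

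In all there were 21 wide sites around the 9 genes, of which 15 had a peak in both lists, 6 in siFra-1 only and 0 in siCTL only. A site counted when either list reached 250 bp, and 12 of the 21 did so through siFra-1 alone, so that they had to be wider there. Direction was therefore read from the 10 siCTL peaks that were wide themselves. At these the siFra-1 peak was wider in 7, equal in 1 and narrower in 2 (at AMOTL2 and AJUBA), where 50.5% of all 3107 overlapped wide siCTL peaks of the series were wider in siFra-1. The ANKRD1 peak of 1600 bp stands for 2 of the 7. Peaks close to a start site were found at more of the genes in siFra-1. In siCTL 2 of the 9 genes (ANKRD1 and AJUBA) had a peak centred within 1.5 kb of the TSS, near the background of 15.6% of coding genes. In siFra-1 there were 4 (YAP1, TEAD3, ANKRD1 and AJUBA), where 8.94% of coding genes had one. Most peaks lay elsewhere: 50 of 91 in siCTL and 32 of 61 in siFra-1 were intronic, and 26 and 18 were intergenic. Shares over all peaks of the lists are not given beside these counts, so they only describe the positions.

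The share of wide peaks with a TEAD motif differed with the part of the peak searched in siCTL, but not in siFra-1. In the central 200 bp, 5 of 10 wide siCTL peaks (50%, Wilson interval 23.7 to 76.3) and 9 of 19 wide siFra-1 peaks (47.4%, 27.3 to 68.3) held one. All wide peaks of the lists gave 29.4% and 31.1%, and windows moved 2 kb to either side gave 13.6% and 13.8%. The interval of the siFra-1 peaks contained the value for all wide siFra-1 peaks, so at this number a difference from other wide peaks was not detectable. Over the whole peak siCTL gave 70% (39.7 to 89.2) and siFra-1 gave 47.4% (27.3 to 68.3). In siCTL the TEAD motif alone was in 60% and both motifs in 10%, where all wide peaks gave 25.7% and 15.7%. In siFra-1 these were 42.1% and 5.26%, where all wide peaks gave 31.7% and 13.3%. Neither motif was held by 1 of 10 (10%) against 7 of 19 (36.8%) wide peaks, where all wide peaks gave 32.7% and 35.8%. The AP-1 motif was held by 3 of 10 wide siCTL peaks (30%, 10.8 to 60.3) and 4 of 19 wide siFra-1 peaks (21.1%, 8.51 to 43.3), where all wide peaks gave 31.9% and 22.9% and moved windows 3.26% and 3.51%. Over the full width of the 21 sites, 10 held a TEAD motif, 5 an AP-1 motif, 1 of these both, and 7 neither. A share over the sites of the whole series is not given beside these site counts. By gene, 3 of 4 wide sites of ANKRD1 and 3 of 3 of AJUBA held a TEAD motif and none an AP-1 motif, while AMOTL2 had 4 sites of 11 with each. The AP-1 motifs thus lay at AMOTL2 and TEAD1, and leaving out AMOTL2 left 0% of wide siCTL and 11.1% of wide siFra-1 peaks with an AP-1 motif in the centre. Within 50 kb of the TSS the order of the lists was turned, siCTL giving 12.5% (2.24 to 47.1) and siFra-1 giving 21.4% (7.57 to 47.6).

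**Figure D5:**
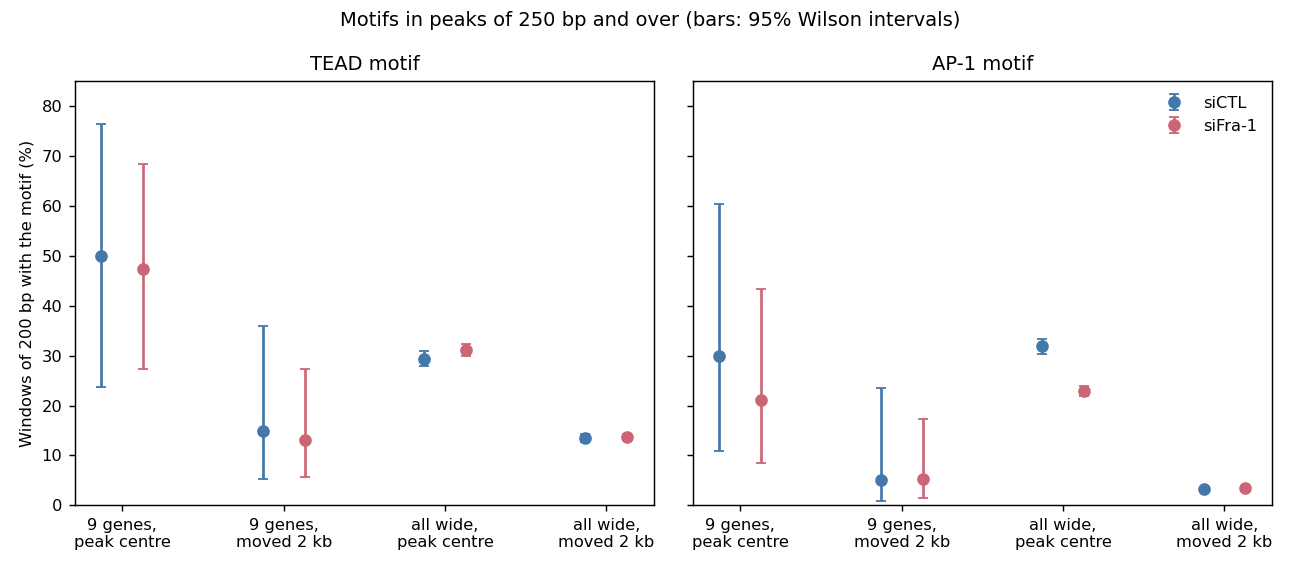
Percentage of 200 bp windows with the TEAD motif (left) and the AP-1 motif (right), for wide peaks of the 9 genes and all wide peaks, at the peak centre and 2 kb to either side, with 95% Wilson intervals that cover counting error only. For the 9 genes the TEAD shares of 50% and 47.4% have wide intervals that overlap those of all wide peaks.

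The rest of the pathway was described by lists of genes that were not members. Of 15 other genes of the Hippo core (kinases, scaffolds, upstream regulators, TEAD2 and the TEAD cofactors VGLL3 and VGLL4), 14 had a peak and all 14 had fewer in siFra-1, 56 against 153 (ratio 0.366, 0.265 to 0.5). Cover around them fell from 19700 to 9800 bp with a median change of -650 bp, and FRMD6 and STK4 lost most, -1750 and -1550 bp. FRMD6 encodes a FERM-domain regulator of the pathway and STK4 the MST1 kinase. Of 17 other targets of YAP and TAZ, 16 had fewer peaks and IGFBP3 had more (9 against 5), 158 against 248 in all (0.637, 0.519 to 0.781). Summed cover around these was nearly level, 40600 bp in siCTL and 40750 bp in siFra-1. It was larger in siFra-1 at 7 of the 17 genes and smaller at 8, where 15.2% of coding genes with a peak had more. Wide peaks around the targets numbered 39 and 55 (ratio 1.41, 0.919 to 2.18, against 1.64 for the whole lists), with more in siFra-1 at 13 of 17 genes, where 49.5% of coding genes with a wide peak had more. Around the core genes wide peaks numbered 10 and 9 (0.9, 0.324 to 2.46). The matricellular gene CCN1 gained most cover (4750 to 6750 bp, 7 to 9 wide peaks), followed by CRIM1 with 650 bp. PTPN14, which encodes a phosphatase that binds YAP, lost most (1600 to 450 bp), followed by the stress gene GADD45A at -950 bp. These lists too were read beside the 85.8% of all coding genes with fewer peaks and the median change of -300 bp. The median of the other core genes lay below that value while the median of the other targets lay above it. For peak number the interval of the core genes contained the 0.474 of the whole lists, and that of the targets lay above it. For wide peaks both intervals contained 1.64.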

How the data were processed

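ChIP with an anti-p300/CBP antibody was sequenced from MDA-MB-231 cells under siCTL or siFra-1, 1 library per condition made from pooled precipitations. Per the study's methods the authors aligned reads to hg19 with BWA, while the submitters' processing notes name Bowtie2. They built background-subtracted, scaled coverage in 50 bp bins and called peaks at a threshold of 25 with a gap and run of 50 bp. The deposited values are peak positions only (chromosome, start, end), with no score, and replicates cannot be compared. The input sample was not analysed here. All starts in the lists were 1 after a multiple of 50. The positions printed here add 1 to each listed start and keep each listed end. How the lists count the first base is not stated, so the printed starts may be off by 1 bp.

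Genes came from GENCODE release 44 lifted to GRCh37, and sequence from GRCh37. Peaks overlapped when they shared at least 1 bp (checked on simulated peaks against bedtools 2.31.1). The scripts used Python 3.11.15 with numpy 2.4.6 and scipy 1.17.1. Shares have Wilson intervals and ratios of peak numbers exact binomial intervals. Every member was described, and the single peaks named were the widest in each list, those of at least 500 bp, those of at least 250 bp in 1 list only and those within 1.5 kb of a TSS. Peaks at the AMOTL2 cluster, around the canonical WWTR1 start and at the shared sites, IGFBP3 and the ANKRD1 promoter bases were added after their values were seen. Sequences were 1 per gene, the widest named peak with a motif outside UTRs. The members and gene lists were chosen with earlier results of these data known. Alternatives were other widths, windows, overlaps and motif windows, and each gene left out in turn. The AP-1 and TEAD motifs were counted on both strands.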

Additional observations from a re-analysis of the deposited data

How the results depend on the processing

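With 1 library per condition no paired analysis was possible because no test was made, and precision is limited by the number of peaks, the unknown depth and the calling threshold. Of 155 values set beside those reported, 5 reversed, 12 moved and 138 kept their direction and stayed within the interval of the value (shares), 1.5 times (ratios) or 50 bp (width change). Because the intervals of the motif shares are wide, some of the 138 still moved by over 1.5 times, such as the AP-1 share of wide siCTL peaks (30%), which was 12.5% within 50 kb, and that of siFra-1 (21.1%), which was 11.1% without AMOTL2. Keeping peaks of at least 150 bp turned the ratio of peak number (0.67) to 1.12 and raised the ratio of covered length (1.11) to 1.7 and the share of siCTL peaks overlapped (22.0%) to 48%. With peaks of at least 250 bp these were 1.9, 2.24 and 80%. A window of 250 kb gave a covered length ratio of 0.821, 14.6% of siCTL peaks overlapped and a median width change of 50 bp. An overlap of 50% of both peaks gave shares of 11% in siCTL and 16.4% in siFra-1 and a median width change of 50 bp. That rule leaves out pairs of very unlike width by definition. Leaving out each gene in turn, the covered length ratio ran from 0.942 (without AMOTL2) to 1.24, the TEAD motif share of wide siCTL peaks from 37.5% to 80% (without AMOTL2) and their AP-1 share from 0% (without AMOTL2) to 42.9%. Without both ANKRD1 and AMOTL2, an alternative chosen after seeing the data, the covered length ratio was 0.77 and 12.7% of siCTL peaks were overlapped. The cause of these changes was not tested, beyond the removal of 100 bp peaks by the width minimum and of named genes by the omissions. Merging peaks within 500 bp and canonical start sites changed the direction of no ratio over the 9 genes, but the canonical start turned WWTR1 from 0 and 1 peaks to 4 and 2.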
